A study of Homo sapiens with 20 samples.

Results

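Untreated SKBR3 cells were compared with untreated AU565 cells by RNA sequencing, with 2 libraries per line, which are 4 of the 20 libraries in the series. The 4 libraries were chosen by their labels alone, and no measured value entered the choice. SKBR3 and AU565 are established human breast adenocarcinoma lines that were raised from the pleural fluid of the same patient, and both carry an amplified ERBB2 (HER2) gene. The series as a whole asks how torkinib (PP242), an inhibitor of the MTOR kinase, changes expression in 5 cancer lines, the others being the melanoma lines A375 and SKMEL28 and the liposarcoma line 94T778. Untreated SKBR3 cells grew in RPMI medium with penicillin, streptomycin, glutamine and 10% foetal bovine serum. Untreated AU565 cells grew in complete RPMI to which sodium pyruvate and sodium bicarbonate had been added. Line and medium therefore cannot be told apart in any difference given here. No culture time is given for the untreated cells. The same lines with torkinib, at 0.8 µM in SKBR3 and 4 µM in AU565 for 72 h, gave 2 further libraries per line that share no sample with the untreated comparison. Each line is a single culture line, and the labels do not state whether both libraries of a group were grown apart. The p-values below therefore reflect library-to-library spread, which could be technical only.

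ERBB2 encodes a receptor tyrosine kinase of the epidermal growth factor receptor family that has no ligand of its own and signals in pairs with EGFR or ERBB3, through the PI3K and RAS pathways. Lines with the amplified receptor usually have a luminal keratin pattern, with keratins 8, 18 and 19, and many of them express genes of apocrine secretion and of lipid synthesis. ATF4, a transcription factor whose translation is favoured when amino acids are short or the endoplasmic reticulum is stressed, switches on genes of amino acid uptake and synthesis, and MTOR complex 1 also raises its translation.

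Among the largest differences were genes with at most 3 counts in 1 of the 2 untreated lines. The sequence before the start of 4 of them is shown here. GSTP1, which encodes the detoxifying enzyme glutathione S-transferase pi, and BCL7A, which encodes a subunit of the SWI/SNF chromatin remodelling complex, were expressed in SKBR3. FGG, the gene of the fibrinogen gamma chain, and AKR1C2, a steroid-reducing aldo-keto reductase, were expressed in AU565. Each line below holds the 250 bases before the RefSeq start in the build GRCh38.p14, written 5′ to 3′ along the gene's strand, with every CG dinucleotide in capitals. The windows are chr11:67583562-67583811 on the plus strand for GSTP1, chr12:122021634-122021883 on the plus strand for BCL7A, chr4:154612657-154612906 on the minus strand for FGG and chr10:5003858-5004107 on the minus strand for AKR1C2.
GSTP1: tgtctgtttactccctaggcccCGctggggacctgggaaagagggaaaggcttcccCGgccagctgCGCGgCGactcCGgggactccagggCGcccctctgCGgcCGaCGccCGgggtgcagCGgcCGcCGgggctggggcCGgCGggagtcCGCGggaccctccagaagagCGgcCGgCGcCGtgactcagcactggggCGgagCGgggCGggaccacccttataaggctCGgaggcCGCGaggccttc
BCL7A: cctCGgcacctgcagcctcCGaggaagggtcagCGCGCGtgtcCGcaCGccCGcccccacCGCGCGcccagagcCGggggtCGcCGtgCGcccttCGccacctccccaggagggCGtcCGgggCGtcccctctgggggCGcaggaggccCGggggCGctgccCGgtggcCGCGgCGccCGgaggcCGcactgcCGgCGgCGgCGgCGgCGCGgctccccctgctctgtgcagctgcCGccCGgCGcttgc
FGG: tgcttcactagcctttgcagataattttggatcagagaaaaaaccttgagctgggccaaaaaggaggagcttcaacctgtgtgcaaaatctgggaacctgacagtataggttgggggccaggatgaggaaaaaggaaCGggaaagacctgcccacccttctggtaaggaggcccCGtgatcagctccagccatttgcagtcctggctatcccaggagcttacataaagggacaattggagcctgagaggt
AKR1C2: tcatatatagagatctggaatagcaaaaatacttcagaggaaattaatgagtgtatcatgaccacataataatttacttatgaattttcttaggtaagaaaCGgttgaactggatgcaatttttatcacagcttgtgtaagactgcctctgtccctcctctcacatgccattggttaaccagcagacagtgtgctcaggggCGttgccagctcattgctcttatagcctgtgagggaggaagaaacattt
The windows of GSTP1 and BCL7A held 28 and 38 CG dinucleotides, against 2 in FGG and 2 in AKR1C2. CG is the dinucleotide at which vertebrate DNA is methylated, and methylation was not measured in these libraries.

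Counted reads numbered 5982804 and 7343664 in SKBR3, and 9737903 and 7521790 in AU565. All 13 markers of luminal and HER2-positive breast cells had counts in all 4 libraries, with a summed level of 31602 and 29414 CPM in SKBR3 and of 21503 and 21492 CPM in AU565, and it was 214 to 626 CPM in untreated A375, SKMEL28 and 94T778. Levels are in CPM, that is, counts put on one depth by TMM factors. The SKBR3 libraries differed from each other more than other replicates did, with a chi-square per gene of 11.1 against 2.11 between the AU565 libraries. Mitochondrially encoded genes took 7.63% and 4.44% of counts in SKBR3, against 4.66% and 4.11% in AU565, and MALAT1, a nuclear RNA, had 1368 and 753 CPM in SKBR3, against 617 and 461 CPM in AU565. Melanocyte markers had counts for 10 and 12 of 12 genes in the SKBR3 libraries and for 9 and 6 of 12 in the AU565 libraries, and the median marker in SKBR3 replicate 2 stood at 0.461% of its level in SKMEL28. For 26 of the 3391 genes called higher in SKBR3, such a share of SKMEL28 RNA would give over 10% of the level in that replicate, and its part in the other results was not tested.

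The difference between the lines moved with the base composition of the transcript. Over 10 equal bins of tested genes ordered by transcript GC content, the median log2 fold change (SKBR3 over AU565) lay at -0.58 in the bin of lowest GC (median 37.3%) and at 0.52 in that of highest GC (64.3%). Between the 2 SKBR3 libraries, replicate 1 over replicate 2, the same bins gave -0.33 and 0.12, and between the 2 AU565 libraries -0.02 and 0.05. With torkinib the line difference gave -0.23 and 0.25. A fit corrected for GC content and transcript length was therefore added after the data were seen. Its values stand beside each named gene whose call it changes or whose fold it moves by over 1.5 times, and the part of base composition in the line differences was not tested beyond it.

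**Figure D1:**
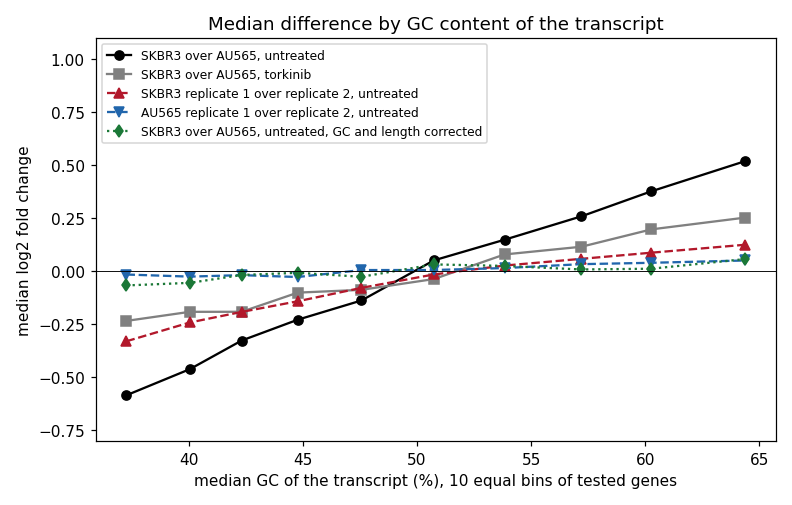
Median log2 fold change (vertical axis) in 10 equal bins of tested genes by GC content of the transcript (horizontal axis, %), for SKBR3 over AU565 untreated, with torkinib and after correction, and for replicate 1 over replicate 2 of each untreated line. The untreated line difference runs from -0.58 to 0.52 over the bins and the SKBR3 replicates from -0.33 to 0.12, while the AU565 replicates stay between -0.03 and 0.05.

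Of 12841 tested genes, the quasi-likelihood test of edgeR, at an adjusted p of 0.05 by Benjamini and Hochberg, called 7111 (55.4%), 3391 higher in SKBR3 (26.4%) and 3720 lower (29%). Both the call and a difference over 2-fold were met by 2560 genes (19.9%), 1125 higher (8.76%) and 1435 lower (11.2%). Of these, 285 higher and 415 lower genes passed 4-fold, and 64 higher and 114 lower genes passed 16-fold. The counts of list members given below are to be read against 26.4% called higher and 29% called lower. The libraries of the 2 lines did not overlap for 10200 genes (79.4%). The count of calls was 7625 without SKBR3 replicate 1 and 8527 without SKBR3 replicate 2, but 4286 without AU565 replicate 1 and 4504 without AU565 replicate 2. After GC and length correction 6350 genes were called, and 1705 of them lay over 2-fold. In bulk RNA, fewer expressing cells and less RNA per cell cannot be told apart, which holds for every gene below.

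The 2 breast lines were nevertheless the closest pair in the series. In a single model of all 20 libraries, 17.9% of 16640 genes were called and over 2-fold between SKBR3 and AU565, against 35.4 to 53.7% in the other 9 pairs of untreated lines. The log2 levels of SKBR3 and AU565 libraries had a Pearson correlation across genes of 0.9495 to 0.962, against 0.678 to 0.856 in the other pairs. Genes are not independent replicates, so these values describe the libraries and carry no test.

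The 15 protein-coding genes with the largest positive difference and the 15 with the largest negative one, at 10 CPM or more in the higher line, were at low levels in the other line. FBP1, which encodes fructose-1,6-bisphosphatase, an enzyme of gluconeogenesis, stood at 237 and 234 CPM in SKBR3, against 0.531 and 0.685 CPM in AU565, a log2 fold change of 8.58 ± 0.18 (edgeR adjusted p = 2.86e-08). ANGPTL4, a secreted inhibitor of lipoprotein lipase, stood at 49.9 and 50.97 CPM in SKBR3, against 0.531 and 0.411 CPM in AU565 (6.67 ± 0.23 on the log2 scale). CNN3, an actin-binding calponin, stood at 111 and 135 CPM in SKBR3, against 2.44 and 2.47 CPM in AU565 (5.64 ± 0.18). In each of these genes both SKBR3 libraries lay many times above both AU565 libraries. The actin-sequestering thymosin TMSB4X stood at 32.3 and 29.4 CPM in SKBR3, against 0.212 and 0.548 CPM in AU565, the WNT receptor gene FZD6 at 18.7 and 22.6 CPM in SKBR3, against 0.425 and 0.274 CPM in AU565, and the microfibril protein gene MFAP2 at 34.3 and 28.3 CPM in SKBR3, against 0.531 and 0.822 CPM in AU565. The kinase gene NEK9 stood at 37.1 and 42.5 CPM in SKBR3, against 0.956 and 1.096 CPM in AU565, the RAS-related RRAS2 at 21.5 and 27.97 CPM in SKBR3, against 0.637 and 0.685 CPM in AU565, and CGA, the common alpha subunit of glycoprotein hormones, at 11.02 and 12.01 CPM in SKBR3, against 0.319 and 0.137 CPM in AU565. Of the remaining 6 genes, ZNF22 and ZNF358 encode zinc finger proteins, SLC25A4 encodes a mitochondrial ADP/ATP carrier, and GSTP1, BCL7A and FGFR1 are described further on.

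On the AU565 side the largest level belonged to CP, the copper-carrying plasma protein ceruloplasmin, at 1.29 and 1.61 CPM in SKBR3, against 393 and 402 CPM in AU565, a log2 fold change of -8.07 ± 0.16 (edgeR adjusted p = 2.86e-08). Both fibrinogen chains of the set, FGB and FGG, and the retinol carrier RBP4 are, like CP, plasma proteins that the liver normally secretes, and RBP4 stood at 0 and 0.146 CPM in SKBR3, against 21.99 and 20.4 CPM in AU565. SLC7A2, a transporter of cationic amino acids, stood at 0 and 0.586 CPM in SKBR3, against 43.2 and 38.5 CPM in AU565 (-6.90 ± 0.37), and WDR72, known for its part in enamel formation, at 0 and 0.732 CPM in SKBR3, against 37.3 and 33.99 CPM in AU565 (-6.40 ± 0.38, or -5.78 after GC correction). ABCG2, a drug efflux pump, stood at 0.184 and 0.732 CPM in SKBR3, against 26.2 and 30.6 CPM in AU565 (-5.81 ± 0.33), and CLCA2, a regulator of chloride conductance found in breast epithelium, at 0.735 and 0.146 CPM in SKBR3, against 21.5 and 20.8 CPM in AU565 (-5.64 ± 0.36). The remaining genes were SAGE1 and MAGEB2, which are cancer-testis antigens, the transcription factor genes ERG and SOHLH2, AKR1C2, the GABA transporter gene SLC6A11 and the axon guidance gene SEMA3D. Reads of AKR1C2 can be split with its near-identical relatives, so its level is uncertain. Among non-coding RNAs, the imprinted RNA H19, which was singled out after its values were seen, stood at 4807 and 4758 CPM in SKBR3, against 252 and 274 CPM in AU565 (4.19 ± 0.10).

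**Figure D2:**
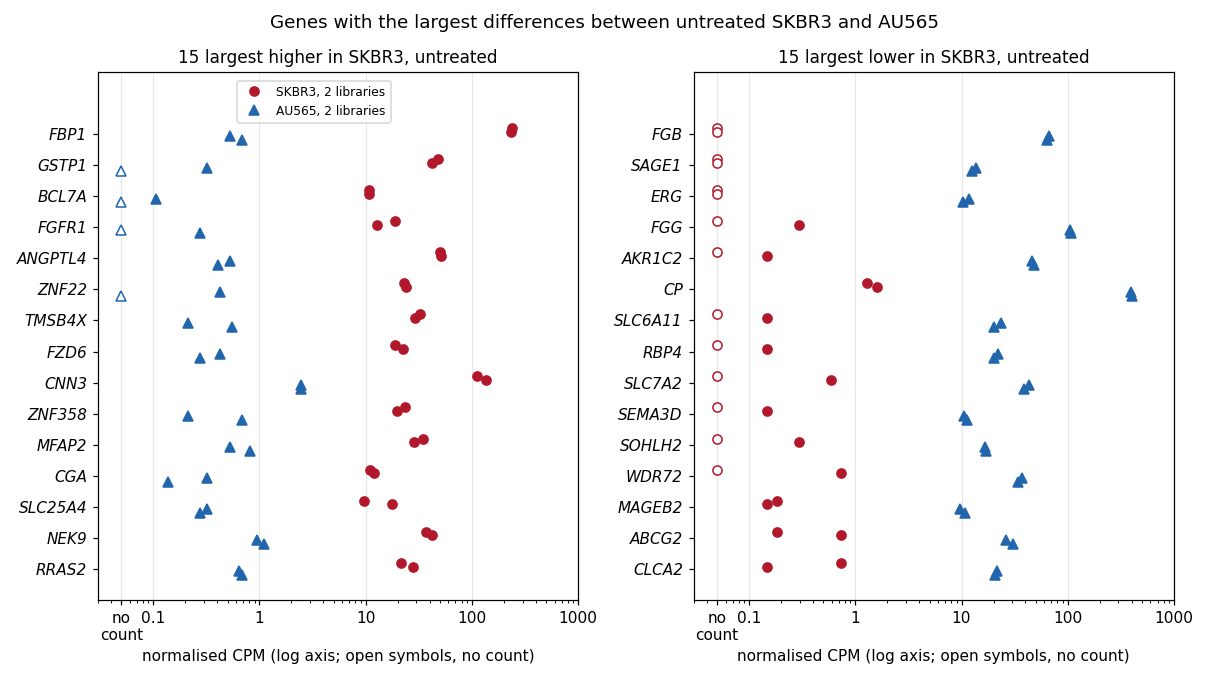
Level of each gene in each untreated library (horizontal log axis, normalised CPM; open symbols, no count) for the 15 genes with the largest difference in each direction, SKBR3 as red circles and AU565 as blue triangles. That the libraries of the lines do not overlap was a condition for the choice of the 30 genes. CP shows the largest level in AU565, at 393 and 402 CPM.

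ERBB2 itself was slightly lower in SKBR3, with 7411 and 7627 CPM in SKBR3, against 9842 and 9390.5 CPM in AU565 (log2 fold change -0.35 ± 0.084, edgeR adjusted p = 0.0064). ERBB3, its kinase-impaired partner, stood at 251 and 274 CPM in SKBR3, against 350.3 and 359 CPM in AU565 (-0.43 ± 0.094, edgeR adjusted p = 0.004). EGFR stood at 130.0 and 165 CPM in SKBR3, against 274 and 257 CPM in AU565 (-0.84 ± 0.12, edgeR adjusted p = 5.42e-04). In all 3 receptors both SKBR3 libraries lay below both AU565 libraries, and the line differences with torkinib were -0.34 ± 0.071 for ERBB2, -0.45 ± 0.067 for ERBB3 and -0.81 ± 0.066 for EGFR. None of the 17 tested receptor and adaptor genes was called higher and 13 were called lower, against 26.4% and 29% of all tested genes, with a median of -0.65, or of -0.44 with 10 called lower after GC correction. The named adaptors were SOS1, an exchange factor for RAS (-1.07), the ubiquitin ligase CBL (-1.09) and the PI3K regulatory subunit PIK3R1 (-1.17). Their corrected differences were -0.44, -0.69 and -0.63 in the same order. Without AU565 replicate 1 the count called lower was 7, and 2 and 1 were called higher without SKBR3 replicate 1 and 2. The call of ERBB2 ended without AU565 replicate 1 (edgeR adjusted p = 0.071), and that of ERBB3 without AU565 replicate 1 (edgeR adjusted p = 0.056) or 2 (edgeR adjusted p = 0.074).

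Genes that lie beside ERBB2, and can be gained with it, were called in both directions. After GC correction 3 of the 24 tested genes of this stretch were called higher and 11 lower. Their median was -0.12 before correction and -0.33 after it. GRB7, an adaptor encoded next to ERBB2, stood at 553 and 402 CPM in SKBR3, against 598 and 553 CPM in AU565 (-0.27 ± 0.14, edgeR adjusted p = 0.13), and after GC correction it was called lower (-0.69, edgeR adjusted p = 6.62e-05). GRB7 was also called lower without SKBR3 replicate 1 (-0.52), in the model of all 20 libraries (edgeR adjusted p = 0.036), without a filter on low counts (edgeR adjusted p = 0.02) and with limma-voom under sample quality weights (adjusted p = 0.032). Of the 24 tested genes of this stretch, ERBB2 included, 4 were called higher and 8 lower, but 7 higher without SKBR3 replicate 2, 2 higher without AU565 replicate 2 and 5 lower without AU565 replicate 1. C17orf37 stood at 699.8 and 604 CPM in SKBR3, against 320.5 and 327 CPM in AU565 (1.01 ± 0.10, or 0.42 after GC correction), and GSDMB, which encodes a pore-forming gasdermin, at 729.8 and 644 CPM in SKBR3, against 409 and 415 CPM in AU565 (0.74 ± 0.096). CDC6, which loads the replicative helicase, stood at 328 and 390.5 CPM in SKBR3, against 906 and 971 CPM in AU565 (-1.39 ± 0.11), and MSL1, part of a histone acetyltransferase complex, at 542 and 503 CPM in SKBR3, against 818 and 794 CPM in AU565 (-0.63 ± 0.090). C17orf37 and GSDMB were thus higher in SKBR3, and CDC6 and MSL1 lower. Of 11 listed ERBB ligands 6 were tested; EGF stood at 24.2 and 25.8 CPM in SKBR3, against 62.6 and 59.2 CPM in AU565 (-1.28 ± 0.12) and HBEGF at 4.59 and 2.93 CPM in SKBR3, against 7.97 and 8.63 CPM in AU565 (-1.16 ± 0.27), and both were lower in SKBR3. NRG2 was called higher at 4.04 and 4.69 CPM in SKBR3, against 2.02 and 2.19 CPM in AU565 (1.06 ± 0.30), a call that ended after GC correction (edgeR adjusted p = 0.05), with DESeq2 (adjusted p = 0.12), without SKBR3 replicate 2 and without either AU565 replicate.

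Luminal transcription factors included large differences in both directions. Of 20 tested, 8 were called higher and 5 lower (median 0.14), against 26.4% and 29% of all tested genes, so the count lower lay near the background. GATA3, which maintains luminal fate, stood at 44.99 and 47.01 CPM in SKBR3, against 8.29 and 7.67 CPM in AU565 (2.52 ± 0.15, edgeR adjusted p = 4.14e-06). TFAP2A, an AP-2 factor that can activate the ERBB2 promoter, stood at 112 and 116 CPM in SKBR3, against 32.6 and 32.2 CPM in AU565 (1.81 ± 0.11). EHF, an epithelial ETS factor, stood at 11.8 and 17.4 CPM in SKBR3, against 85.5 and 76.9 CPM in AU565 (-2.46 ± 0.17), and KLF5, a Krüppel-like factor of proliferating epithelium, at 10.5 and 14.1 CPM in SKBR3, against 57.6 and 53.99 CPM in AU565 (-2.17 ± 0.16). GATA3 and TFAP2A were thus several-fold higher in SKBR3, and EHF and KLF5 several-fold lower, and the torkinib libraries gave 2.32 ± 0.13, 1.84 ± 0.097, -2.04 ± 0.10 and -1.41 ± 0.11 for these 4 genes. Without either AU565 replicate, 2 luminal factors were called higher. The luminal keratins were higher in SKBR3. KRT8 stood at 7331 and 6773 CPM in SKBR3, against 3061 and 3258 CPM in AU565 (1.16 ± 0.091), KRT18 at 5284 and 4684 CPM in SKBR3, against 1961 and 2087 CPM in AU565 (1.30 ± 0.096) and KRT19 at 4736 and 4258 CPM in SKBR3, against 2399 and 2514 CPM in AU565 (0.87 ± 0.093, or 0.31 after GC correction). The hair keratin KRT81 went the other way at 821 and 712 CPM in SKBR3, against 1789 and 1774 CPM in AU565 (-1.22 ± 0.098), but it has close relatives with which its reads can be confused. Of 14 tested keratins 7 were called higher and 2 lower, or 4 lower after GC correction and likewise without SKBR3 replicate 1.

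Of the secretory genes called, most were lower in SKBR3. The summed level of the 34 listed genes was nonetheless 6111 and 5600 CPM in SKBR3, against 5521 and 5555 CPM in AU565. Of 19 tested of 34 listed apocrine and secretory genes, 4 were called higher and 13 lower, with a median of -1.02 (-1.34 after GC correction). Of the 13 called lower, 4 passed the filter on low counts through AU565 alone, which favours a call in that direction. Of 13 genes that passed in both lines 4 were called higher and 9 lower. AGR2, a disulfide isomerase needed for mucin folding, stood at 104 and 118 CPM in SKBR3, against 772 and 801 CPM in AU565 (-2.82 ± 0.10, edgeR adjusted p = 4.70e-07). AZGP1, a secreted glycoprotein typical of apocrine cells, stood at 63.9 and 59.02 CPM in SKBR3, against 413 and 422 CPM in AU565 (-2.76 ± 0.10), and CEACAM6, a cell-surface adhesion molecule, at 4.96 and 7.62 CPM in SKBR3, against 89.9 and 76.6 CPM in AU565 (-3.70 ± 0.19). SERHL2 went the other way, at 687 and 594 CPM in SKBR3, against 60.9 and 60.4 CPM in AU565 (3.40 ± 0.11). The median over 17 genes tested with torkinib was -2.41, with 5 called higher and 11 lower, against 27.5% and 30.5% of all genes tested there.

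**Figure D3:**
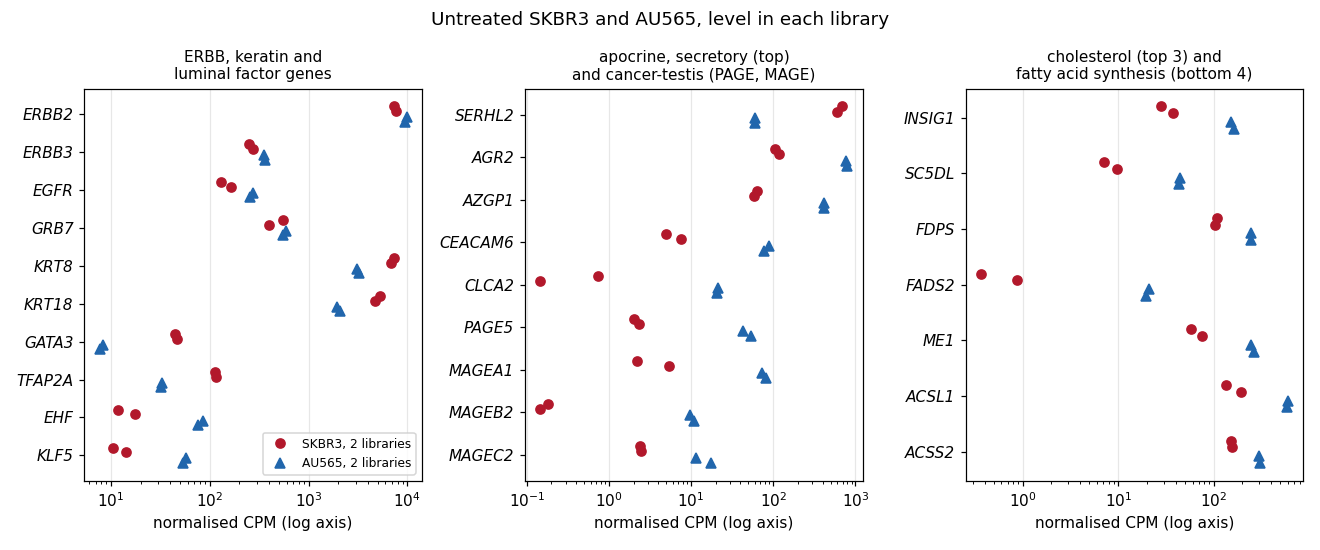
Level of each gene in each untreated library (horizontal log axes, normalised CPM), SKBR3 as red circles and AU565 as blue triangles, for ERBB, keratin and luminal factor genes (left), apocrine, secretory and cancer-testis genes (middle) and lipid synthesis genes (right). GATA3, TFAP2A, KRT8, KRT18 and SERHL2 lie to the right in SKBR3, and the lipid synthesis genes shown all lie to the left. Lipid synthesis genes called higher in SKBR3 are not shown.

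The targets of ATF4 were the list with the largest positive median. All 23 listed genes were tested, and 20 were called higher in SKBR3 and 1 lower, with a median of 1.42, or 1.27 after GC correction with the same counts. Their summed level was 6266 and 5685 CPM in SKBR3, against 2538 and 2625 CPM in AU565. CHAC1, which degrades glutathione, stood at 71.2 and 55.4 CPM in SKBR3, against 2.55 and 2.19 CPM in AU565 (4.71 ± 0.21, edgeR adjusted p = 1.33e-06). ASNS, the asparagine synthetase, stood at 445 and 384 CPM in SKBR3, against 68.9 and 75.5 CPM in AU565 (2.52 ± 0.11, edgeR adjusted p = 1.33e-06). NUPR1, a stress-induced nuclear protein, stood at 350.0 and 282 CPM in SKBR3, against 64.2 and 61.3 CPM in AU565 (2.33 ± 0.13), and SLC7A5, the light chain of a leucine transporter, at 1219.7 and 1199 CPM in SKBR3, against 437 and 442 CPM in AU565 (1.46 ± 0.087). Each of these genes was 2.75-fold or more higher in SKBR3, with no overlap between the lines. ATF4 itself stood at 908 and 754 CPM in SKBR3, against 289 and 288 CPM in AU565 (1.53 ± 0.11), DDIT3, a factor of endoplasmic reticulum stress, at 30.1 and 24.3 CPM in SKBR3, against 3.61 and 5.34 CPM in AU565 (2.62 ± 0.22), and CBS, which makes cystathionine, at 56.01 and 38.2 CPM in SKBR3, against 7.65 and 7.26 CPM in AU565 (2.64 ± 0.21). These 3 lie outside the naming rule and were chosen after their values were seen. The member called lower was MTHFD2, an enzyme of mitochondrial one-carbon metabolism, at 229 and 281 CPM in SKBR3, against 364 and 359.7 CPM in AU565 (-0.50 ± 0.11, or -0.08 after GC correction), and CEBPB (-0.24) and CTH (-0.15) did not pass the test, although CEBPB was called lower after GC correction (-0.81), without either SKBR3 replicate, in the model of all 20 libraries (edgeR adjusted p = 0.018), with limma-voom (adjusted p = 0.049) and with a filter of 5 CPM (edgeR adjusted p = 0.0498). Without either SKBR3 replicate 2 members were called lower.

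With torkinib the median of the list lay below 0, while both SKBR3 libraries still exceeded both AU565 libraries in its summed level. The summed level was 3565 and 3497 CPM in torkinib SKBR3, against 3297 and 3400 CPM in torkinib AU565. Of 22 genes tested there, 7 were called higher and 10 lower (median -0.23), against 27.5% and 30.5% of all genes tested there. CHAC1 had a line difference of 0.46 ± 0.18 and ASNS of 0.16 ± 0.071, against 4.71 and 2.52 in untreated cells. The difference between these differences was called for both, at -4.24 for CHAC1 (edgeR adjusted p = 5.01e-07) and -2.37 for ASNS (edgeR adjusted p = 4.16e-08). In that test, 17 list members were called in the negative direction and 0 in the positive one. Of all 13519 tested genes, 10.6% were called negative and 13.3% positive. The untreated line difference, by which the list stood out, itself enters this test. A lean against the untreated direction can therefore be partly built in, here and for the lists below. The torkinib dose differed between the lines, so line and dose cannot be told apart here.

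**Figure D4:**
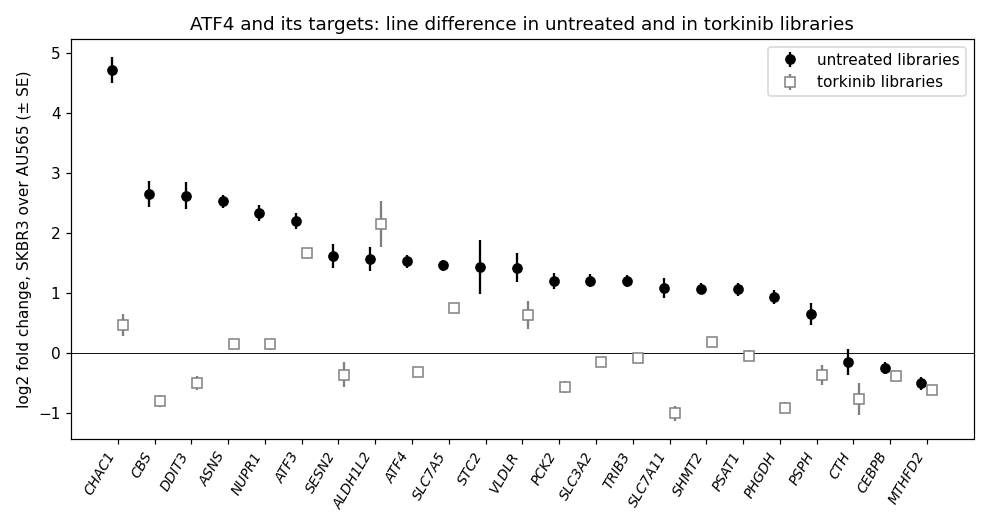
Log2 fold change of SKBR3 over AU565 (vertical axis, ± SE, 2 libraries per line) for ATF4 and its targets in untreated libraries (filled circles) and in torkinib libraries (open squares). CHAC1, CBS, DDIT3, ASNS and NUPR1 exceed 2 in untreated cells and lie below 1 with torkinib.

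Transporters, MTOR regulators and immediate early genes included further large differences of the same kind. SLC1A4, which carries alanine, serine and cysteine, stood at 39.3 and 39.8 CPM in SKBR3, against 3.19 and 3.15 CPM in AU565 (3.63 ± 0.17), with 11.3% of the level in SKBR3 replicate 2 expected from the SKMEL28 share described above. SLC6A14, a broad amino acid transporter, stood at 0.735 and 0.439 CPM in SKBR3, against 24.3 and 25.9 CPM in AU565 (-5.42 ± 0.28). Of 29 tested transporters 8 were called higher and 15 lower. Of the 15, 2 passed the filter on low counts through AU565 alone. Of 26 transporters that passed in both lines, 8 were called higher and 13 lower. MTOR stood at 102 and 97.2 CPM in SKBR3, against 121 and 118 CPM in AU565 (-0.27 ± 0.10, edgeR adjusted p = 0.048), a call at the threshold that ended after GC correction (-0.09), without either AU565 replicate, with DESeq2 (adjusted p = 0.16), without a filter on low counts (edgeR adjusted p = 0.09), with TMM factors from the 4 libraries (edgeR adjusted p = 0.063) and without mitochondrially encoded genes (edgeR adjusted p = 0.065). Of 35 tested members and regulators of the MTOR complexes, 11 were called higher and 8 lower (median 0.10), near the 26.4% and 29% of all tested genes, or 5 lower without AU565 replicate 1. EIF4EBP1, the translation repressor that MTOR complex 1 phosphorylates, stood at 78.04 and 74.99 CPM in SKBR3, against 15.3 and 13.6 CPM in AU565 (2.40 ± 0.13, or 1.73 after GC correction, edgeR adjusted p = 3.09e-06). DDIT4, an inhibitor of MTOR complex 1, stood at 353 and 378 CPM in SKBR3, against 149.8 and 132 CPM in AU565 (1.37 ± 0.10), and SESN2, a leucine sensor upstream of it, at 20.8 and 24.2 CPM in SKBR3, against 8.498 and 6.03 CPM in AU565 (1.61 ± 0.20). All 3 were higher in SKBR3, whereas SESN3, a relative of SESN2, was lower at 0.735 and 1.17 CPM in SKBR3, against 7.01 and 6.304 CPM in AU565 (-2.75 ± 0.35, or -2.11 after GC correction). The immediate early gene FOS stood at 1282 and 1015 CPM in SKBR3, against 380.2 and 386 CPM in AU565 (1.58 ± 0.12), FOSB at 323 and 169.7 CPM in SKBR3, against 22.1 and 18.6 CPM in AU565 (3.59 ± 0.28), and the MAP kinase phosphatase DUSP1 at 235 and 219.8 CPM in SKBR3, against 86.4 and 88.4 CPM in AU565 (1.38 ± 0.099). SPRED1, an inhibitor of RAS signalling, was lower at 6.98 and 7.76 CPM in SKBR3, against 28.8 and 28.1 CPM in AU565 (-1.94 ± 0.16, or -1.35 after GC correction). Of 28 tested immediate early and feedback genes 14 were called higher and 3 lower with a median of 0.45, which was 0.09 with 12 higher and 6 lower after GC correction. Without SKBR3 replicate 2, 5 were called lower.

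Genes of cytosolic ribosomal proteins were higher in SKBR3 as a list. Of 50 tested genes 47 were called higher and 0 lower, with a median of 0.65, and 39 were called higher and 1 lower after GC correction (median 0.48). RPS16 stood at 1123 and 1058 CPM in SKBR3, against 466 and 450.5 CPM in AU565 (1.25 ± 0.089), RPS19 at 1073 and 999 CPM in SKBR3, against 422 and 438 CPM in AU565 (1.27 ± 0.091) and RPL13 at 1163 and 1070.3 CPM in SKBR3, against 490.1 and 505 CPM in AU565 (1.17 ± 0.091). Their summed level was 80369 and 74812 CPM in SKBR3, against 47525 and 49719 CPM in AU565. With torkinib 45 were called higher and 1 lower (median 0.43). These genes have many near-identical pseudogenes, so single levels are uncertain. For oxidative phosphorylation 20 of 44 tested nuclear genes were called higher and 4 lower (median 0.22), with COX4I1 at 426 and 384 CPM in SKBR3, against 189 and 202 CPM in AU565 (1.05 ± 0.099). Without AU565 replicate 1 the counts were 7 higher and 1 lower, without replicate 2 they were 9 and 1, and without SKBR3 replicate 2, 7 were called lower. Of 12 tested mitochondrially encoded genes 7 were called higher and 0 lower, and MT-CO3, a subunit of cytochrome oxidase, stood at 3936 and 2390.4 CPM in SKBR3, against 1916 and 1823 CPM in AU565 (0.76 ± 0.19), a call that ended with DESeq2 (adjusted p = 0.076). SKBR3 replicate 1 lay far above replicate 2 in MT-CO3, as in the mitochondrial share of counts. Without SKBR3 replicate 2 all 12 were called higher, without SKBR3 replicate 1 a single one was called lower, and without AU565 replicate 2 the count higher was 3.

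Of the lipid synthesis genes tested, more were called lower in SKBR3 than higher. Of 26 tested genes of cholesterol synthesis 3 were called higher and 14 lower (median -0.62), and after GC correction 1 was called higher and 17 lower. Without SKBR3 replicate 1 the count higher was 5, and without AU565 replicate 1 or 2 it was 1 and 0. INSIG1, a sterol-regulated brake on the SREBP factors, stood at 28.1 and 37.2 CPM in SKBR3, against 151 and 163 CPM in AU565 (-2.26 ± 0.14, edgeR adjusted p = 6.62e-06). SC5DL, a desaturase of late sterol synthesis, stood at 7.16 and 9.67 CPM in SKBR3, against 44.7 and 43.7 CPM in AU565 (-2.37 ± 0.17), and FDPS, the farnesyl diphosphate synthase, at 107 and 103 CPM in SKBR3, against 244 and 245 CPM in AU565 (-1.22 ± 0.096). Both SKBR3 libraries lay below both AU565 libraries in each. Of 18 tested genes of fatty acid synthesis 4 were called higher and 11 lower (median -0.54). Of the 11, 2 passed the filter on low counts through AU565 alone. Of 16 genes that passed in both lines, 4 were called higher and 9 lower. The summed level of the fatty acid list overlapped between the lines, at 8539 and 9447 CPM in SKBR3, against 9281 and 8657 CPM in AU565. That of the cholesterol list was 2376 and 2747 CPM in SKBR3, against 4810 and 4803 CPM in AU565. FADS2, which desaturates polyunsaturated fatty acids, stood at 0.367 and 0.879 CPM in SKBR3, against 21.03 and 19.3 CPM in AU565 (-4.92 ± 0.31), ME1, the NADPH-making malic enzyme, at 57.7 and 75.9 CPM in SKBR3, against 247 and 265 CPM in AU565 (-1.93 ± 0.14), ACSL1, a fatty acyl-CoA ligase, at 133 and 193 CPM in SKBR3, against 601 and 589 CPM in AU565 (-1.86 ± 0.15), and ACSS2, which makes acetyl-CoA from acetate, at 153 and 155 CPM in SKBR3, against 297 and 305 CPM in AU565 (-0.97 ± 0.092). With torkinib 5 cholesterol genes were called higher and 8 lower (median -0.16), against 27.5% and 30.5% of all genes tested there. The change of the line difference was called positive for 10 cholesterol and 10 fatty acid genes and negative for 2 and 0, against 13.3% and 10.6% of all genes in that test.

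Detoxification differed gene by gene. Of 29 tested of 36 listed NRF2 target and detoxification genes, 5 were called higher and 17 lower (median -0.41, or -0.71 after GC correction). Of the 17, 5 passed the filter on low counts through AU565 alone. AKR1B10, which reduces retinal and other aldehydes, stood at 2.94 and 3.81 CPM in SKBR3, against 53.5 and 60.6 CPM in AU565 (-4.05 ± 0.19), and AKR1C2 and ABCG2 were also lower in SKBR3, whereas GSTP1 was higher. With torkinib the list had a median of 0.25, with 13 called higher and 7 lower of 25, where 27.5% and 30.5% of all genes were called, so the count lower lay near the background. The change of the line difference was called positive for 11 members and negative for 0, against 13.3% and 10.6% of all genes in that test. Among retinoid genes, CRABP2, the carrier of retinoic acid to its nuclear receptor, stood at 238 and 209.6 CPM in SKBR3, against 11.5 and 8.09 CPM in AU565 (4.49 ± 0.17). ALDH1A1, which makes retinoic acid, stood at 0.184 and 1.17 CPM in SKBR3, against 11.2 and 14.7 CPM in AU565 (-4.10 ± 0.43). ALDH1A3, another enzyme of the list and not counted among the named genes, was called higher. It stood at 133 and 165 CPM in SKBR3, against 107 and 108 CPM in AU565 (0.48 ± 0.12). The carrier was thus higher in SKBR3, and these enzymes went in opposite directions. Of 18 tested aryl hydrocarbon receptor and retinoid genes, 7 were called higher and 6 lower, against 26.4% and 29% of all tested genes.

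Adhesion and calcium-binding genes contained differences in both directions. S100A4, a calcium-binding protein linked to cell motility, stood at 651 and 629 CPM in SKBR3, against 49.3 and 52.4 CPM in AU565 (3.66 ± 0.10, edgeR adjusted p = 1.34e-07), and S100A6 at 2131 and 1881 CPM in SKBR3, against 323 and 348 CPM in AU565 (2.58 ± 0.10, or 1.98 after GC correction). S100A10, the partner of annexin A2, stood at 70.5 and 64.1 CPM in SKBR3, against 180.0 and 189 CPM in AU565 (-1.46 ± 0.11), and S100A8, a subunit of calprotectin, at 81.9 and 75.1 CPM in SKBR3, against 181 and 184 CPM in AU565 (-1.22 ± 0.10). The first pair was thus higher in SKBR3 and the second lower, and 11 of 25 tested S100 and annexin genes were called higher and 5 lower, or 7 higher without either AU565 replicate. The collagen-binding integrin chains were lower, ITGA1 at 3.86 and 4.25 CPM in SKBR3, against 107 and 96.6 CPM in AU565 (-4.64 ± 0.16, or -4.03 after GC correction) and ITGA2 at 4.04 and 4.39 CPM in SKBR3, against 23.8 and 19.7 CPM in AU565 (-2.36 ± 0.21). The hyaluronan receptor gene CD44 stood at 7.35 and 7.18 CPM in SKBR3, against 84.2 and 79.5 CPM in AU565 (-3.49 ± 0.14), and BCAM, a laminin receptor, was higher at 805 and 794 CPM in SKBR3, against 264 and 259 CPM in AU565 (1.61 ± 0.088). Of 23 tested integrin and matrix genes 5 were called higher and 11 lower with a median of -0.48, but the median was 0.07 in the model of all 20 libraries, which tests more genes, and 7 were called lower without AU565 replicate 1. PLAU, which encodes urokinase, an activator of plasminogen, was higher at 5.14 and 5.13 CPM in SKBR3, against 0.212 and 0.274 CPM in AU565 (4.33 ± 0.45). The desmosomal PKP2 stood at 11.9 and 14.1 CPM in SKBR3, against 40.9 and 44.5 CPM in AU565 (-1.70 ± 0.15) and the tight junction protein gene TJP1 at 61.9 and 76.5 CPM in SKBR3, against 145 and 143 CPM in AU565 (-1.05 ± 0.12), both lower in SKBR3, while plakoglobin (JUP) was higher at 1264 and 1263 CPM in SKBR3, against 744 and 705 CPM in AU565 (0.80 ± 0.087).

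Signalling genes outside the ERBB family also separated the lines. BMP7, a bone morphogenetic protein, stood at 183 and 201 CPM in SKBR3, against 11.2 and 13.98 CPM in AU565 (3.94 ± 0.14), and the inhibitors of differentiation, which are BMP targets in many cells, were higher in SKBR3 as well. ID1 stood at 69.8 and 61.7 CPM in SKBR3, against 7.22 and 6.72 CPM in AU565 (3.23 ± 0.15), ID2 at 134 and 128 CPM in SKBR3, against 49.3 and 54.7 CPM in AU565 (1.33 ± 0.11) and ID3 at 352 and 300.4 CPM in SKBR3, against 75.2 and 85.1 CPM in AU565 (2.03 ± 0.12). The list of TGF-beta and BMP genes as a whole had 8 of 27 tested called higher and 9 lower, near the 26.4% and 29% of all tested genes. WNT5A, a ligand of non-canonical WNT signalling, stood at 44.6 and 47.3 CPM in SKBR3, against 5.099 and 3.97 CPM in AU565 (3.32 ± 0.17), while the WNT antagonist DKK1 was lower at 1.47 and 3.37 CPM in SKBR3, against 18.6 and 18.8 CPM in AU565 (-2.89 ± 0.28) and the receptor gene FZD4 lower at 5.51 and 4.25 CPM in SKBR3, against 19.8 and 18.8 CPM in AU565 (-1.997 ± 0.20). PDGFB, a growth factor for stromal cells, stood at 136 and 136 CPM in SKBR3, against 27.1 and 22.5 CPM in AU565 (2.45 ± 0.13), the pseudokinase gene PTK7 at 7.71 and 6.298 CPM in SKBR3, against 60.02 and 52.4 CPM in AU565 (-3.02 ± 0.17), and MET, the receptor of hepatocyte growth factor, at 58.9 and 70.2 CPM in SKBR3, against 179.7 and 169.8 CPM in AU565 (-1.43 ± 0.12). PDGFB was higher in SKBR3, and PTK7 and MET were lower. LIF, a cytokine of the interleukin-6 family, was lower at 4.04 and 4.39 CPM in SKBR3, against 15.4 and 16.03 CPM in AU565 (-1.89 ± 0.20) and CCL2, a monocyte attractant, was higher at 8.08 and 5.86 CPM in SKBR3, against 1.700 and 0.959 CPM in AU565 (2.32 ± 0.35).

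Among interferon response, antigen presentation and cancer-testis genes, more were called lower in SKBR3 than higher. Inflammation genes went the other way, with 8 of 14 tested called higher and 2 lower, against 26.4% and 29% of all tested genes. After GC correction 7 of them were called higher and 2 lower. The antiviral OAS3 stood at 11.2 and 11.9 CPM in SKBR3, against 82.2 and 91.4 CPM in AU565 (-2.91 ± 0.14) and OAS1 at 10.1 and 12.01 CPM in SKBR3, against 37.9 and 41.9 CPM in AU565 (-1.84 ± 0.16), and of 23 tested interferon response genes 4 were called higher and 9 lower, against 26.4% and 29% of all tested genes. Of these 9, 2 passed the filter on low counts through AU565 alone. Of 20 interferon response genes that passed in both lines, 4 were called higher and 7 lower. HLA-B stood at 7.71 and 7.03 CPM in SKBR3, against 20.6 and 20.3 CPM in AU565 (-1.48 ± 0.17) and HLA-C at 18.5 and 18.2 CPM in SKBR3, against 48.01 and 38.1 CPM in AU565 (-1.24 ± 0.16), both subject to reads shared among HLA genes. PSMB10, an immunoproteasome subunit, was higher at 43.2 and 35.9 CPM in SKBR3, against 13.8 and 12.5 CPM in AU565 (1.58 ± 0.16). With torkinib 10 of 15 antigen presentation genes were called higher in SKBR3 and 1 lower, against 3 higher and 6 lower of 14 in untreated cells, where the shares of all genes were 27.5% and 30.5% with torkinib and 26.4% and 29% without. The change of the line difference was called positive for 11 members and negative for 0, against 13.3% and 10.6% of all genes in the test of the change. The untreated count higher was 5 without SKBR3 replicate 1 and 1 without either AU565 replicate. Cancer-testis genes are normally limited to the germ line, and the summed level of the 30 listed was 563 and 578 CPM in SKBR3, against 690.1 and 747 CPM in AU565. PAGE5 stood at 2.02 and 2.34 CPM in SKBR3, against 43.4 and 53.3 CPM in AU565 (-4.44 ± 0.22), MAGEA1 at 2.204 and 5.42 CPM in SKBR3, against 73.2 and 82.4 CPM in AU565 (-4.29 ± 0.25), and MAGEC2 at 2.39 and 2.49 CPM in SKBR3, against 11.6 and 17.5 CPM in AU565 (-2.55 ± 0.30), and MAGEA genes have near-identical copies. Of 30 listed, 15 were tested, with 1 called higher and 9 lower, or 0 higher after GC correction. Of the 9, 5 passed the filter on low counts through AU565 alone, which favours a call in that direction. Of 9 genes that passed in both lines 1 was called higher and 4 lower. The count higher was 2 without either SKBR3 replicate and 0 without either AU565 replicate.

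Genes of DNA repair and the cell cycle were called in both directions. Of 27 tested homologous recombination genes 1 was called higher and 13 lower (median -0.34), but only 3 higher and 3 lower after GC correction (median -0.11), and 6 and 5 lower without AU565 replicate 1 and 2, or 2 higher without SKBR3 replicate 2. NBN, which senses double-strand breaks, stood at 244 and 321 CPM in SKBR3, against 739.6 and 767 CPM in AU565 (-1.41 ± 0.13, or -0.86 after correction), and EXO1, a resecting nuclease, at 19.3 and 23.1 CPM in SKBR3, against 47.3 and 50.2 CPM in AU565 (-1.19 ± 0.14, or -0.89). ATM, the kinase that signals breaks, stood at 30.5 and 33.1 CPM in SKBR3, against 55.9 and 49.9 CPM in AU565 (-0.73 ± 0.13), and its call ended after correction (-0.13). MUS81, a junction endonuclease gene, was higher at 69.2 and 55.8 CPM in SKBR3, against 34.1 and 33.99 CPM in AU565 (0.87 ± 0.14). In excision and mismatch repair 10 of 39 tested genes were called higher and 16 lower, against 26.4% and 29% of all tested genes, or 7 and 6 lower without AU565 replicate 1 and 2. The glycosylase gene MUTYH stood at 19.5 and 16.7 CPM in SKBR3, against 5.63 and 6.17 CPM in AU565 (1.61 ± 0.19) and MSH6 at 77.3 and 81.4 CPM in SKBR3, against 145 and 150.5 CPM in AU565 (-0.90 ± 0.10, or -0.36 after correction). Of 33 tested replication genes 3 were called higher and 10 lower (median -0.21), with the same counts after GC correction. The count lower lay near the 29% of all tested genes. One of those called higher was the thymidine kinase gene TK1, at 374 and 377 CPM in SKBR3, against 183 and 181 CPM in AU565 (1.04 ± 0.090). CCND1, which encodes cyclin D1, stood at 355 and 422 CPM in SKBR3, against 605 and 609 CPM in AU565 (-0.64 ± 0.10), and RB1, the retinoblastoma gene, at 18.4 and 29.7 CPM in SKBR3, against 48.9 and 60.02 CPM in AU565 (-1.16 ± 0.20), both lower in SKBR3. CDKN2C, of the same list but not counted among the named genes, was higher. It stood at 44.8 and 47.2 CPM in SKBR3, against 22.7 and 24.1 CPM in AU565 (0.98 ± 0.13). Of 23 tested regulators of the G1 phase, 6 were called higher and 9 lower, or 3 and 8 after GC correction. PMAIP1, a p53 target that promotes cell death, was lower at 0.735 and 1.904 CPM in SKBR3, against 8.92 and 9.59 CPM in AU565 (-2.73 ± 0.35). Of 21 tested p53 targets, 6 were called higher, SESN2 among them, and 8 lower, or 2 and 6 after GC correction. Of 22 tested genes of the BCL2 family and cell death, 6 were called higher and 8 lower, or 1 and 5 after correction. Of the 8, 3 passed the filter on low counts through AU565 alone, which favours a call in that direction. Of 19 such genes that passed in both lines, 6 were called higher and 5 lower. Before correction 26.4% and 29% of all tested genes were called higher and lower.

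**Figure D5:**
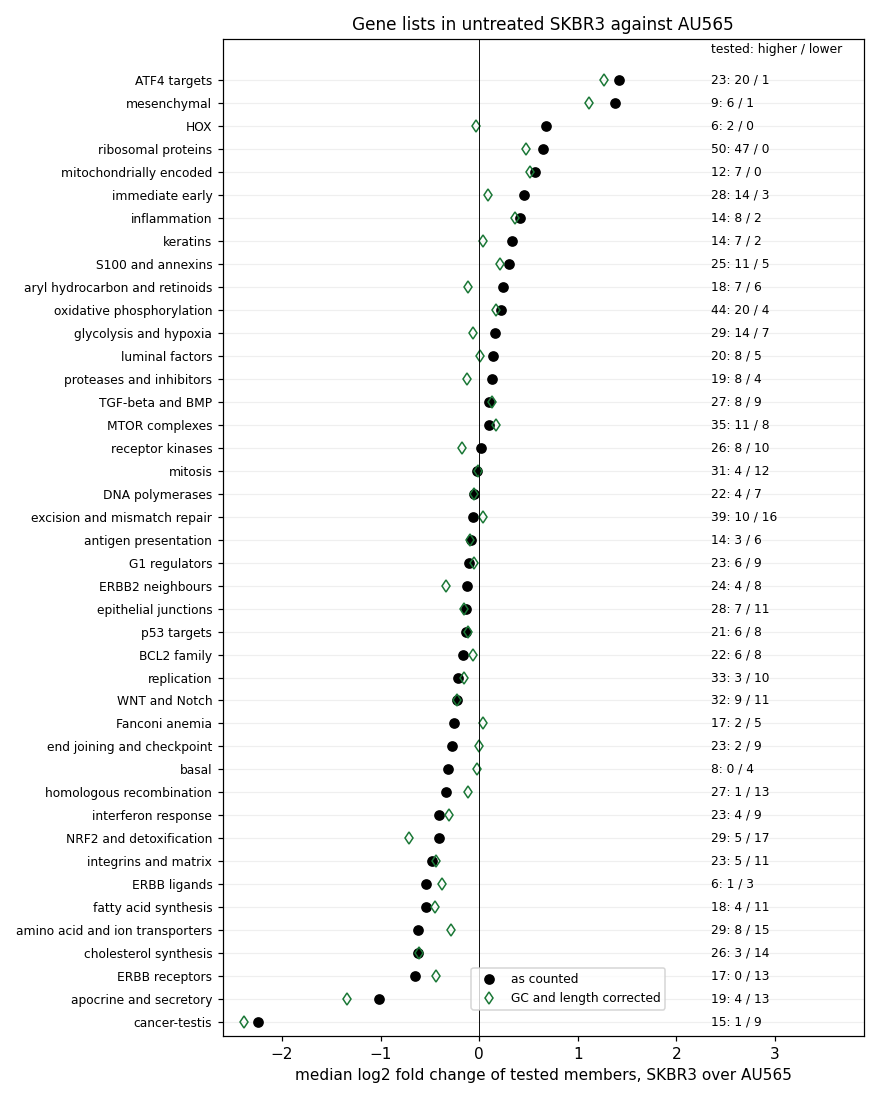
Median log2 fold change of SKBR3 over AU565 (horizontal axis) over the tested members of each gene list, as counted (filled circles) and after GC and length correction (open diamonds), with the number tested and the numbers called higher and lower. ATF4 targets lie at 1.42 and cancer-testis genes at -2.24, and the homologous recombination median of -0.34 lies at -0.11 after correction.

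At 5 CPM or more in 1 line and with at most 3 counts over both libraries of the other, 11 protein-coding genes were counted on the SKBR3 side and 22 on the AU565 side. Where both libraries of the other line had no count, the fold is given as a lower limit, taking 3 counts for the pair, and such limits and intervals cover counting error only. GSTP1 stood at 47.6 and 41.9 CPM in SKBR3, against 0.319 and 0 CPM in AU565, a ratio of 247-fold (exact 95% interval 84.2 to 1203). FGFR1, a fibroblast growth factor receptor gene, stood at 18.7 and 12.9 CPM in SKBR3, against 0 and 0.274 CPM in AU565, a ratio of 129-fold (exact 95% interval 35.3 to 1076). BCL7A stood at 10.8 and 10.8 CPM in SKBR3, against 0.106 and 0 CPM in AU565, a ratio of 181-fold (exact 95% interval 31.9 to 7206). These 3 genes had between 1 and 3 counts in AU565. PTCH1, the Hedgehog receptor gene, stood at 6.98 and 7.03 CPM in SKBR3, against 0 and 0 CPM in AU565, at least 39.03-fold higher in SKBR3, and FAIM, an inhibitor of FAS-induced death, at 8.26 and 6.88 CPM in SKBR3, against 0 and 0 CPM in AU565, at least 41.8-fold higher. The others named by level were ZNF175, NIPA1 and KDELC1.

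On the AU565 side, FGB stood at 0 and 0 CPM in SKBR3, against 67.03 and 63.6 CPM in AU565, at least 268-fold lower in SKBR3. FGG stood at 0 and 0.293 CPM in SKBR3, against 106 and 107 CPM in AU565, and AU565 exceeded SKBR3 by a ratio of 652-fold (exact 95% interval 180.2 to 5386). AKR1C2 stood at 0 and 0.146 CPM in SKBR3, against 45.99 and 48.2 CPM in AU565, an excess in AU565 of 577-fold (exact 95% interval 103 to 22801). SAGE1 stood at 0 and 0 CPM in SKBR3, against 13.8 and 12.6 CPM in AU565, at least 54.3-fold lower in SKBR3. The scavenger receptor gene CD36 stood at 0.184 and 0.293 CPM in SKBR3, against 12.5 and 13.02 CPM in AU565, an excess in AU565 of 52.1-fold (exact 95% interval 17.6 to 255). All of these were at or near 0 in both SKBR3 libraries, and the others named by level were SLC6A11, RBP4 and SOHLH2. The larger AU565 libraries give more counts at the same level, and with the limit on the other line set at 10 counts the numbers were 31 on the SKBR3 side and 62 on the AU565 side.

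In the torkinib libraries 11 of the 11 SKBR3 genes and 17 of the 22 AU565 genes kept the order of the lines. FGB, AKR1C2 and RBP4 were among the exceptions, and FGB had 0 and 0 CPM in torkinib SKBR3, against 0 and 0 CPM in torkinib AU565. FGG kept the order at a far lower level, with 0 and 0 CPM in torkinib SKBR3, against 0.1900 and 0.146 CPM in torkinib AU565. RefSeq gave a start for 9 of the 11 and 19 of the 22 genes, and averages were taken where a gene had several starts. The motif searched was CG, which reads the same on both strands. A window of over 55% GC with over 0.65 of the CG expected from its bases was found for 6 of 9 genes of the SKBR3 side (66.7%) and 5 of 19 genes of the AU565 side (26.3%), against 68.0% of 9221 tested protein-coding genes with a start. The median number of CG was 20, 13 and 20.6 in the same order. The GSTP1 and BCL7A windows shown above belong to the first set, and those of FGG and AKR1C2, with few CG, to the second. These shares carry no test.

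The torkinib libraries repeated many line differences in samples of their own. Of 12638 genes tested there 7330 were called (58%), 3471 higher and 3859 lower, and 1844 lay over 2-fold (14.6%), 6.08% of all tested genes higher and 8.51% lower. Of 12077 genes tested in both, 2228 were called and over 2-fold in untreated cells and 1610 with torkinib. In both sets with the same direction were 940 genes, which are 42.2% of the untreated and 58.4% of the torkinib set, and 15 had opposite directions. CP gave -8.09 ± 0.15 with torkinib, FBP1 7.33 ± 0.48 and S100A4 2.28 ± 0.23, against -8.07, 8.58 and 3.66 untreated. The test of the difference between the 2 line differences called 3224 of 13519 genes (23.8%), 1797 positive and 1427 negative. ABCG2 had 3.37 and 2.87 CPM in torkinib SKBR3, against 13.9 and 10.7 CPM in torkinib AU565, so its line difference was -1.96 ± 0.26 with torkinib and -5.81 without (change 3.84, edgeR adjusted p = 2.31e-04). Without SKBR3 replicate 2 that test called 5211 genes, without AU565 replicate 1 or 2 it called 1838 and 1851, and without SKBR3 torkinib replicate 2 it called 1709. Without AU565 torkinib replicate 1 or 2 it called 1919 and 1636.

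Genes that differed also lay beside each other. Among 11470 tested protein-coding genes in reference order, 213 runs of 5 or more neighbours were called in 1 direction, 100 higher and 113 lower in SKBR3, with 1487 genes in all. The longest, on chromosome 1 from SAMD11 to GLTPD1, held 18 genes higher in SKBR3, with a median of 1.12. It includes AGRN, which encodes the matrix proteoglycan agrin, at 661 and 629 CPM in SKBR3, against 387 and 371 CPM in AU565 (0.77 ± 0.089). Another, on chromosome 1 from TRMT1L to KIF14, held 17 genes lower in SKBR3 (median -0.91), among them ASPM, a spindle gene, at 59.1 and 80.7 CPM in SKBR3, against 122 and 112 CPM in AU565 (-0.74 ± 0.15, or -0.07 after GC correction). On chromosome 11 from PSMD13 to RASSF7, 15 genes were higher (median 1.17), including HRAS, the RAS oncogene, at 87.2 and 69.7 CPM in SKBR3, against 41.00 and 40.02 CPM in AU565 (0.95 ± 0.13, or 0.29 after GC correction). With torkinib, 16 of 17 tested genes of the SAMD11 run, 12 of 14 of the TRMT1L run and 14 of 14 of the PSMD13 run were called in the same direction. After GC correction 16 of 18, 10 of 17 and 11 of 15 were, in the same order, and the median transcript GC of these runs was 65.5%, 38.1% and 63.6%. The count of runs was 119 after correction, and the longest was then a run of 20 genes higher in SKBR3 on chromosome 13 from TPP2 to CUL4A, with a median of 0.91. Gene copy number was not measured here.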

How the data were processed

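Total RNA was sequenced from 5 cell lines, untreated or with torkinib, 2 libraries per group. The authors deposited whole-number counts per gene symbol, not normalised, 1 file per library. The build hg19 (GRCh37) and the tools HTSeq 0.6.1, HISAT2 2.04 and limma 3.34.9 are named per the submitters' processing notes. What each tool did, the annotation and any use of strand were not given in the sources used here. Therefore reads of overlapping, antisense and near-identical genes cannot be told apart. Summary lines that name no gene stayed out: counted reads were 51.3 to 58.1% of reads in the 4 untreated libraries, 5.43 to 7.83% lay in no feature and 1.31 to 1.50% were ambiguous.

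Libraries were grouped by label. Counts were tested in R 4.3.3 with edgeR 4.0.16 (TMM factors from all 20 libraries, filterByExpr with a minimum count of 10, quasi-likelihood test, Benjamini-Hochberg at 0.05) on the 4 untreated libraries (common biological coefficient of variation 0.0879), on the 4 torkinib libraries and, for the change, on all 8. Fold changes are log2, SKBR3 over AU565, with standard error. Exact intervals are binomial at 95%. Alternatives used DESeq2 1.42.0, limma 3.58.1, other filters and models, and each library left out. Scripts were tested on simulated data. GC content and length came from GENCODE 29 transcripts, with values for 93.4% of tested genes. Gene order came from the GENCODE 29 annotation and promoters came from RefSeq (GRCh38.p14). Both use another build than the counts, so no positions are given for counts.

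Named genes were chosen by rule: the 15 protein-coding genes of largest difference each way that were called, did not overlap and reached 10 CPM in the higher line; the 4 called members of each of 42 lists with the smallest p; ERBB2, ERBB3, EGFR, GRB7 and MTOR; 8 genes each way with at most 3 counts in the other line; and members of the 4 longest neighbour runs. Of these the text prints a part, and 1 of the 4 runs is not reported here. Members and lists were chosen with earlier results of these data known, so lists are described by counts and medians without a test. Genes of sex chromosomes that tell sex were left out.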

Additional observations from a re-analysis of the deposited data

Results flagged for a closer look

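The difference between the lines itself differed between torkinib and untreated libraries for 66 of the 149 named genes (edgeR's quasi-likelihood test of the interaction over 13519 genes, Benjamini-Hochberg at 0.05). Over all tested genes 23.8% were called, but most named genes were chosen for their untreated line difference, which itself enters this test, so the shares are not compared. Values are changes on the log2 scale, the line difference with torkinib minus that in untreated cells, both as SKBR3 over AU565. Torkinib was given at 0.8 µM to SKBR3 and at 4 µM to AU565, so line and dose cannot be told apart in any of them.

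Among ATF4 and its targets the change was -4.24 in CHAC1, -3.44 in CBS, -3.12 in DDIT3, -2.37 in ASNS, -2.18 in NUPR1, -1.84 in ATF4, -1.98 in SESN2 and -0.72 in SLC7A5, all negative. Among transporters it was -2.74 in SLC1A4 and 3.005 in SLC7A2. Among MTOR-related genes it was -2.13 in DDIT4 and -0.84 in EIF4EBP1. The immediate early genes DUSP1, FOSB and FOS had -1.44, -1.41 and -1.06, and SPRED1 had 0.87.

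The lipid genes moved in the positive direction, with 1.73 in INSIG1, 1.19 in ME1, 1.05 in FDPS, 0.79 in ACSS2 and 0.65 in ACSL1. The efflux pump gene ABCG2 had 3.84. Positive values were also found in the immune genes HLA-C at 2.18, HLA-B at 2.12, OAS3 at 1.85 and PSMB10 at 0.62. Of the S100 genes, S100A8 had 3.09 and S100A10 0.71, whereas S100A4 had -1.37 and S100A6 -1.08.

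Of the BMP and WNT genes, ID1 had -2.90, BMP7 -1.95, ID3 -1.34, ID2 -1.22 and WNT5A 1.64. Of the secretory, keratin and luminal genes, AZGP1 had -2.57, KRT81 -1.59, CEACAM6 0.97, KLF5 0.75 and AGR2 0.41. Adhesion and matrix genes gave 1.80 in ITGA2, 1.16 in PKP2, 0.61 in TJP1, -1.44 in BCAM and -1.81 in COL5A1. ERBB adaptors and neighbours gave 0.55 in SOS1, 0.50 in CBL, 0.50 in MSL1, -0.75 in C17orf37 and -0.37 in GSDMB. The growth factor PDGFB had -0.75 and the receptor MET -0.59.

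Repair and cycle genes gave 0.88 in RB1, 0.82 in NBN, 0.71 in TK1, 0.65 in CCND1 and -0.54 in ATM. The ribosomal protein gene RPS16 had -0.34, the glycolytic PGK1 0.82 and the RNA H19 -1.50. Among the genes of largest difference, CGA had -4.94, ANGPTL4 -4.37, SEMA3D 2.82, WDR72 1.98, ZNF175 -4.88 and KDELC1 -3.54. In SEMA3D, ZNF175 and KDELC1 a line had at most 3 counts in untreated cells, so the fitted change depends on the prior count.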

How the results depend on the processing

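The 7111 untreated calls numbered 5533 (DESeq2) to 8568 (a model of all 20 libraries) over the alternatives that kept both replicates, and 4286 to 8527 when 1 library was left out. Calls over 2-fold numbered 2560, but 981 when edgeR tested against a log2 fold change of 1, a stricter question by construction. They numbered 1705 after GC and length correction, 1706 after that correction with the replicate block, and 2222 to 3352 with 1 library left out. Of 6778 calls with a GC value, 4798 were kept in the same direction after correction and 29 turned; the cause was not tested. With 1 library left out, the 7330 torkinib calls numbered 5895 to 6750 and the 3224 changes of the line difference 1636 to 5211. The lone library of a line was then assumed to vary like the other groups. Genes with at most 3 counts in AU565 numbered 11, but 31 at a limit of 10 counts and 3 at 10 CPM or more. Those with at most 3 counts in SKBR3 numbered 22, but 62 at a limit of 10 counts, 11 at 10 CPM or more, and 55 and 35 with SKBR3 replicate 1 or 2 alone, where the same limit covers fewer reads. Runs of neighbours numbered 213, but 82 at 7 or more genes and 119 after GC correction. Of 42 list medians, 28 kept their sign under all 16 alternatives, as did 21 of the 27 over 0.2 in size. No named gene turned its direction, and 5 of 149 lost the call after GC correction: ASPM, ATM, MTHFD2, MTOR and NRG2.

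Replicate numbers did not pair the libraries. The deviations of replicate 1 from its group mean correlated across genes by 0.06 between untreated SKBR3 and AU565 and by -0.0045 with torkinib, by 0.12 between untreated and torkinib SKBR3 and by -0.04 in AU565. With the replicate number as a block, 7460 genes were called, 2636 of them over 2-fold, 7056 with torkinib and 3421 in the test of the change; with GC correction the block gave 6357. Under the block the call of MTOR ended (edgeR adjusted p = 0.06) and GRB7 was called lower (edgeR adjusted p = 0.029). Base composition, 2 libraries per line and the gap between the SKBR3 libraries limit what small differences can show.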

Other observations

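Genes of glucose use, acid export and stroma that stand in no comparison above also separated the lines. CA12, a membrane carbonic anhydrase, stood at 256 and 282 CPM in SKBR3, against 94.7 and 92.8 CPM in AU565 (log2 fold change 1.52 ± 0.10), and SLC16A3, which exports lactate, at 397 and 406 CPM in SKBR3, against 209 and 201 CPM in AU565 (0.97 ± 0.090). PGK1, a glycolytic kinase, was lower in SKBR3 at 366 and 456 CPM in SKBR3, against 1011 and 1024 CPM in AU565 (-1.31 ± 0.11). Of 29 tested genes of glycolysis and hypoxia 14 were called higher and 7 lower, or 10 and 10 after GC correction. The fibrillar collagen gene COL5A1 stood at 12.9 and 17.3 CPM in SKBR3, against 2.66 and 1.51 CPM in AU565 (2.82 ± 0.29) and TGFBI, a matrix protein gene induced by TGF-beta, at 17.4 and 17.1 CPM in SKBR3, against 47.2 and 42.1 CPM in AU565 (-1.37 ± 0.14), the first higher and the second lower in SKBR3.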
